A study of Cicer arietinum with 8 samples.

Results

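The leaf drought experiment compared leaves of droughted chickpea plants with leaves of watered plants of the same genotype. It was 1 of the 8 samples of the series and 3 of its 24 arrays, chosen by the sample title. The array carried 756 probes besides its controls, and all of them are accounted for here. The other samples were flowers with early pods under drought, leaves and flowers under cold nights, and shoots and roots under salt. The salt plants were 18 days old and were given 150 mM NaCl.

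All plants were ICC 3996, a chickpea genotype known as a source of resistance to Ascochyta blight, and both groups were at 2 weeks after flowering. Each group had 5 plants, grown singly in 15 cm pots under glass at 15 to 25 °C. Pots of both groups were saturated with water and then bagged against evaporation. Droughted pots lost 5 to 10% of their water content a day, and their leaves were taken when the pots reached 30% water content. Control leaves came from pots kept at 80% water content. RNA came from pooled leaf tissue of 1 genotype at a single stage and a single water content, so the data hold no time course and no recovery. The series design calls the 3 arrays biological replicates, and how the pools behind them were made is not stated. The p-values here therefore reflect only how arrays differ among themselves. In limma that spread was estimated over 21 arrays of the series, not over the 3 leaf arrays alone.

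Drying soil raises abscisic acid in a leaf, and this hormone closes the stomata and switches on genes for protective proteins and compatible solutes. Photosynthesis genes often lose transcript as carbon uptake slows. In chickpea, drought after flowering is the classic terminal drought, which overlaps with pod filling. The files pair no probe code with a gene name, a description or a sequence, so these gene classes could not be scored and the leaf label could not be checked against leaf markers. Probes are therefore named by their codes. In bulk tissue, fewer cells of a type and less RNA per cell cannot be told apart.

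Each array held droughted RNA in one dye and control RNA in the other. Droughted RNA was labelled with Cy5 on arrays 1 and 2 and with Cy3 on array 3. Control spots made for Cy5 were bright in the channel that should carry it: 98.9 and 41.6 times background in the droughted channel of arrays 1 and 2, and 33 times in the control channel of array 3. In the opposite channel they stood at 2.14 to 2.31 times background. Arrays 2 and 3 were quantified on the same day and array 1 on another. A log2 ratio below is droughted over control after background correction and normalisation within the array, so it is relative to the typical probe. A value of 1 is a 2-fold higher level in droughted leaves.

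How much of the leaf transcriptome could be read differed between the arrays. Of 4704 spots, 1577 (33.5%) had no flag in either channel on array 1, 2582 (54.9%) on array 2 and 2235 (47.5%) on array 3. On array 1 the control channel alone was flagged at 408 spots and the droughted channel alone at none. Array 1 therefore gave a ratio for 327 probes, against 493 on array 2 and 448 on array 3. The median control signal was 4.64 times background on array 1, 6.28 on array 2 and 10.1 on array 3. Precision is limited by there being at most 3 arrays. The median SE of a fitted log2 ratio was 0.2 for probes on 3 arrays and 0.21 for probes on 2. These SEs use the spread over all 21 arrays of the fit.

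In all, 320 probes had a ratio on 3 arrays, 121 on 2 arrays, 66 on 1 array and 249 on none. The 441 probes with at least 2 arrays, 58.3% of the array, were tested. Of these, 114 lacked array 1, 6 lacked array 2 and 1 lacked array 3. At each spot the 2 channels compete on the same DNA, and 6 spots carried each probe. The median SD among spots of a probe was 0.103, 0.0977 and 0.126 log2 units on arrays 1, 2 and 3. Between arrays the median SD of a probe was 0.31, which is larger than the spread within any of the arrays.

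No probe passed an adjusted p of 0.05 in limma, so 0% of 441 probes were called as changed by drought. The smallest adjusted p was 0.0649. Before adjustment 78 probes (17.7%) had a p under 0.05, of which 38 (8.62%) were higher and 40 (9.07%) were lower in droughted leaves. Their sizes ran from 0.26 to 2.24 with a median of 0.5. The methods' t-test gave 32 probes at a p under 0.05 before adjustment. Of these, 2 also met the study's condition on the 95% interval, by reaching 2-fold. After Benjamini-Hochberg the t-test gave 0. With limma array quality weights 4 probes passed, and with at least 3 unflagged spots per array 1 passed. Those probes are named with their values below.

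The plot of fitted values in order shows how small the response was for most probes. The lowest fitted log2 ratio was -2.24 and the highest 1.14. The median size was 0.24 and the median SE 0.2. At 2-fold or more stood 2 probes on the higher side and 2 on the lower side. For 344 probes (78%) the 95% interval lay wholly within 2-fold in both directions, so a larger change of these was outside the interval. For 141 (32%) it lay within 1.5-fold, and for 97 it reached past 2-fold. CA0713 had the narrowest interval, -0.18 to 0.2, and was picked out for this after its values were seen. Its log2 ratios were 0.06, -0.02 and -0.01 on arrays 1, 2 and 3. Its background-subtracted signal was 49140 droughted and 45052 control on array 1, 52145 and 49469 on array 2, and 49720 and 52436 on array 3. The brightest spots there read 55026, 58417 and 62380 before subtraction. Other tested probes, such as U174 and U395, were as bright in both channels. Whether ratios are compressed near the top of the scale was not tested.

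**Figure D1:**
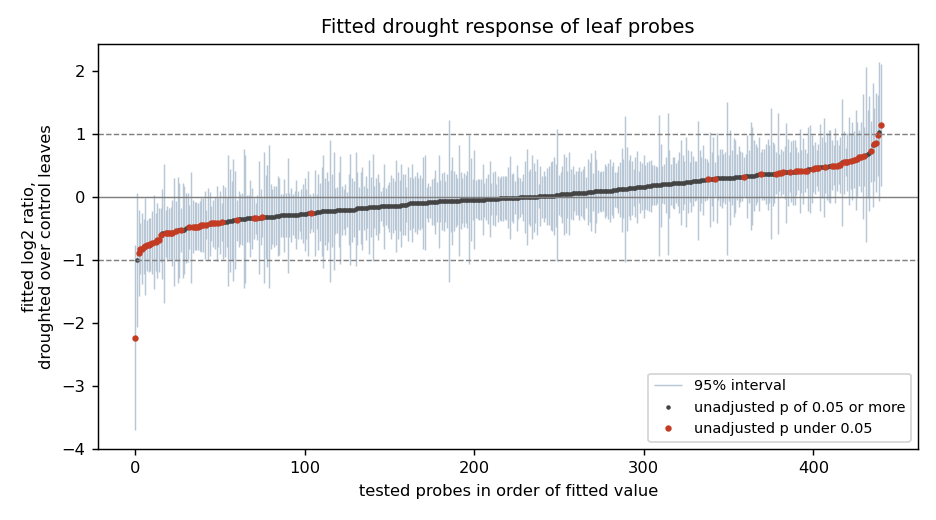
Fitted log2 ratio of droughted over control leaves (vertical axis) for each of the 441 tested probes in order of that value (horizontal axis), with 95% intervals as thin lines and dashed lines at 2-fold. Red points, the 78 probes with an unadjusted p under 0.05, lie at both ends, and 4 probes lie at or past a dashed line.

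U042 had the smallest p. Its log2 ratios were 0.52, 0.56 and 0.66 on arrays 1, 2 and 3, a narrow band above 0 on every array and in both dye orientations. The fitted value was 0.56 with an SE of 0.11, or 1.47-fold higher in droughted leaves, and limma's adjusted p was 0.0649. It passed with array quality weights (adjusted p 0.0364) and with at least 3 unflagged spots (adjusted p 0.036). Its background-subtracted signal was 8618 droughted against 3682 control on array 1, 23032 against 8313 on array 2 and 17020 against 15249 on array 3. The droughted channel was the brighter on all 3 arrays, by least on array 3, where the dyes were swapped.

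U243 was as even in the other direction. Its log2 ratios were -0.40, -0.42 and -0.47, and the fitted value was -0.44 with an SE of 0.10, or 1.36-fold lower in droughted leaves (limma adjusted p 0.151). Its signal read 2140 droughted and 1777 control on array 1, 3896 and 3005 on array 2, and 3387 and 6709 on array 3. On arrays 1 and 2 the droughted channel was therefore brighter for a probe whose normalised ratio was negative. The median spot read 1.5 times brighter in the droughted channel on array 1, 1.65 times on array 2 and 0.808 times on array 3 before normalisation, and U243 lay below those levels.

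**Figure D2:**
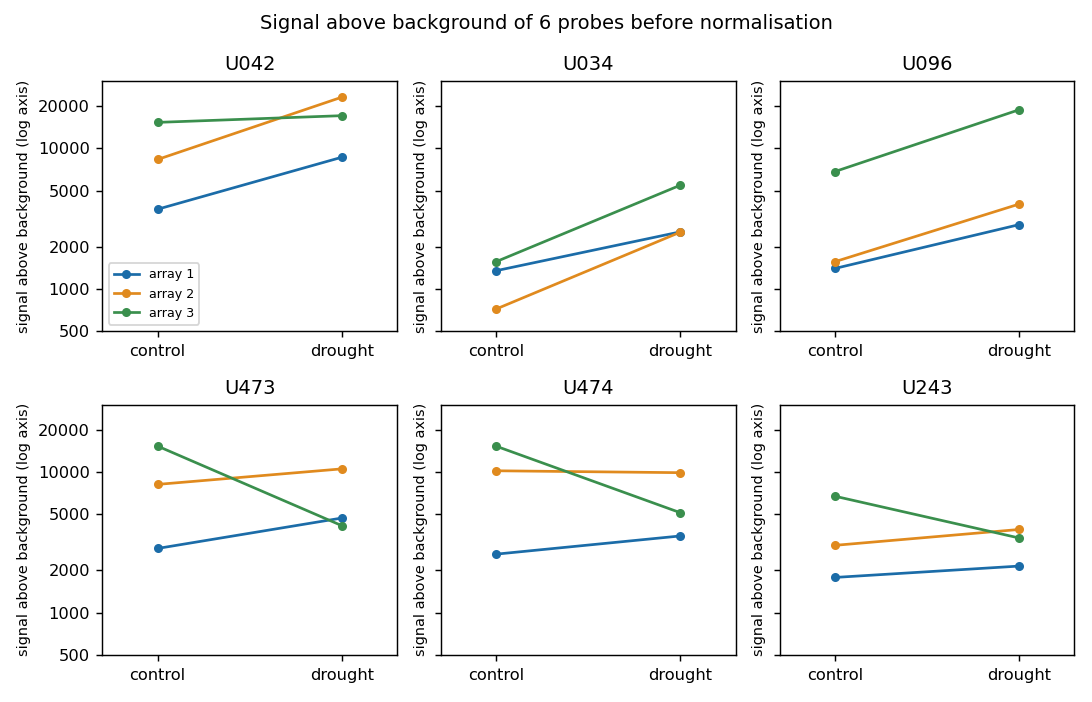
Background-subtracted signal of 6 probes in the control and droughted channels (log vertical axis, in scanner units), with 1 line per array and before any normalisation. U042, U034 and U096 were brighter in the droughted channel on all 3 arrays, while U473 and U243 were dimmer in it only on array 3 and U474 on arrays 2 and 3.

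The probes furthest from 0 with the same sign on all 3 arrays were taken as the main set, 10 on each side. Of the 320 probes with 3 arrays, 119 (37.2%) kept the same sign on all of them, 65 (20.3%) above 0 and 54 (16.9%) below it. On the higher side 7 of the 10 had an unadjusted p under 0.05, and limma's adjusted p ran from 0.179 to 0.391. On the lower side all 10 did, with adjusted p from 0.151 to 0.207. None of the 20 passed.

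U034 had the highest fitted value of all, and rested on 2 spots per array. Its log2 ratios were 0.15, 1.01 and 1.97, fitted at 1.14 with an SE of 0.46, or 2.21-fold higher (limma adjusted p 0.218). The arrays differed by more than the fitted value itself, and without array 3 the fitted value was 0.81. The signal was 2544 droughted and 1347 control on array 1, 2533 and 720 on array 2, and 5461 and 1563 on array 3. All 3 pairs were ordered alike.

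U170 read 1.60, 0.17 and 1.43, fitted at 1.04 with an SE of 0.49, or 2.05-fold higher (limma adjusted p 0.315). U096 read 0.30, 0.54 and 1.84, fitted at 0.98 with an SE of 0.29, or 1.97-fold higher (adjusted p 0.179). U097 read 0.83, 0.19 and 1.47, fitted at 0.84 with an SE of 0.27, or 1.79-fold higher (adjusted p 0.179). Each of these 3 probes had its highest or next highest value on the dye-swapped array 3, and U170 and U097 were close to 0 on array 2.

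U442 was decided by a single array. It read 1.81 on array 1, the highest ratio there, but 0.32 on array 2 and 0.05 on array 3, for a fitted value of 0.68 with an SE of 0.33 (limma adjusted p 0.298). U415 read 0.96, 0.35 and 0.55 (fitted 0.73, SE 0.23) and U256 read 0.47, 0.69 and 1.25 (fitted 0.70, SE 0.43). LS0951, U188 and U016 had fitted values of 0.64, 0.63 and 0.61. Over these 10 probes the median was 0.77 on array 1, 0.34 on array 2 and 1.19 on array 3, and array 2 gave the largest value of none of them.

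On the lower side U473 read -0.10, -0.49 and -1.40, fitted at -0.77 with an SE of 0.19, so that control leaves were 1.71-fold higher (limma adjusted p 0.151). It passed with array quality weights (adjusted p 0.0493). U474 read -0.33, -0.91 and -1.10, fitted at -0.75 with an SE of 0.19, with control leaves 1.69-fold higher (adjusted p 0.151). Array 1 was the nearest to 0 for both, and array 3 the furthest.

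U353 read -0.17, -0.76 and -0.99 (fitted -0.73, SE 0.23), and U401 read -0.11, -0.57 and -1.31 (fitted -0.71, SE 0.21). CA0856, U496 and U104 had fitted values of -0.58, -0.58 and -0.57, and U035, CA0908 and U031 of -0.53, -0.48 and -0.47. Array 1 was the nearest to 0 for 9 of the 10 probes and array 3 the furthest for 9. The set's median was -0.17 on array 1, -0.57 on array 2 and -0.94 on array 3. Array 3 was also the array with the widest spread over all probes, with an SD of 0.592 against 0.39 and 0.378.

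**Figure D3:**
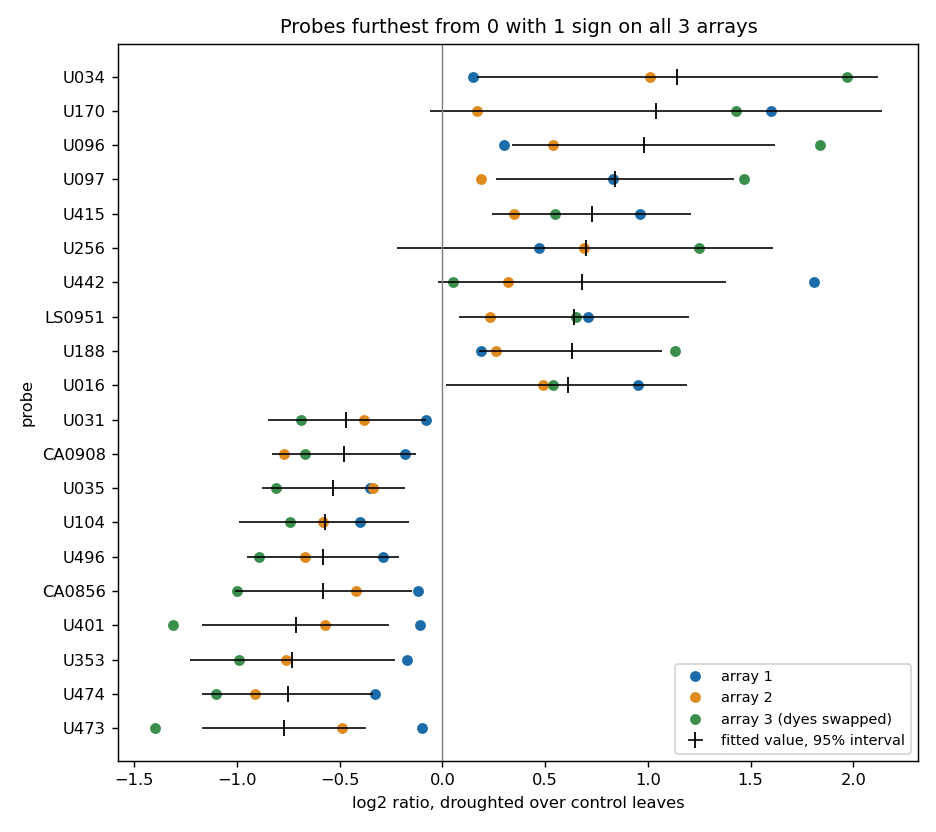
Log2 ratio of droughted over control leaves (horizontal axis) on each array for the 10 highest and 10 lowest probes that had the same sign on all 3 arrays, with the fitted value and its 95% interval in black. The dye-swapped array 3 lies furthest from 0 for 9 of the 10 lower probes, and array 1 nearest to 0 for 9.

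Several of the lowest fitted values came from probes without a ratio on array 1. This was so for 7 of the 8 lowest fitted values and for 2 of the 8 highest, beside 114 of all 441 tested probes. U107 was the lowest of all, at -1.51 on array 2 and -2.97 on array 3, with 6 unflagged spots on each. Its fitted value was -2.24 with an SE of 0.64 (limma adjusted p 0.179). Its signal was 3202 droughted against 5492 control on array 2, and 1524 against 19017 on array 3. It fell outside the rule for named probes and was picked out after its values were seen.

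CA0014 read -0.57 and -1.07 on arrays 2 and 3, fitted at -0.82 with an SE of 0.18 (limma adjusted p 0.151). Among the 114 tested probes without array 1, 12 were lower and 4 higher at an unadjusted p under 0.05 in limma. Over all 441 tested probes 40 (9.07%) were lower and 38 (8.62%) higher at that limit. The signs of the 114 were even, with 56 below 0 and 58 above. The control channel of array 1 was the dimmest of the control channels and the one most often flagged alone. Its part in these values was not tested.

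At 2-fold or more on at least 1 array stood 16 probes on the higher side and 20 on the lower. Array 1 held 3 higher and 0 lower, array 2 held 2 and 2, and array 3 held 13 and 19. Only U170 and U034 were 2-fold higher on 2 arrays, and only U107 was 2-fold lower on 2. No probe was at 2-fold on all 3.

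The probes at 2-fold on array 3 were looked up on the other arrays, where the same sign as on array 3 was seen at 72.4% of all probes for array 1 and at 53.9% for array 2. Of the 13 that were higher there, 7 had a ratio on array 1, all 7 above 0, and 12 had one on array 2, of which 10 were above 0. Of the 19 lower ones, 9 had a ratio on array 1, of which 6 were below 0, and 18 had one on array 2, of which 15 were below 0. U271 was the reverse case, with 1.72 on array 2 alone, beside -0.05 on array 1 and 0.41 on array 3.

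The widest disagreement between arrays was at CA1120, which read 0.37, -0.11 and -1.48. U034 came next, and then U298, which read 0.25, -0.35 and 1.45. CA1002 and U205 showed the same alternation in milder form, at 0.56, -0.10 and 0.89 and at 0.38, -0.14 and 0.99. Both were above 0 on arrays 1 and 3 and just below 0 on array 2. Their fitted values were 0.51 and 0.50, each with an SE of 0.15 and an adjusted p of 0.178, and both passed when arrays were weighted by quality (adjusted p 0.0364 and 0.0493).

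Over all probes the arrays paired unevenly. Arrays 1 and 3 correlated at r = 0.51 over 326 probes, with the same sign at 72.4% of them, although their dyes were opposite. Arrays 1 and 2, with the same dye orientation, correlated at r = 0.02 over 321 probes, with the same sign at 49.5%. Arrays 2 and 3 stood between, at r = 0.21 over 434 probes and 53.9%. These are descriptions across probes, which share the array and its normalisation.

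**Figure D4:**
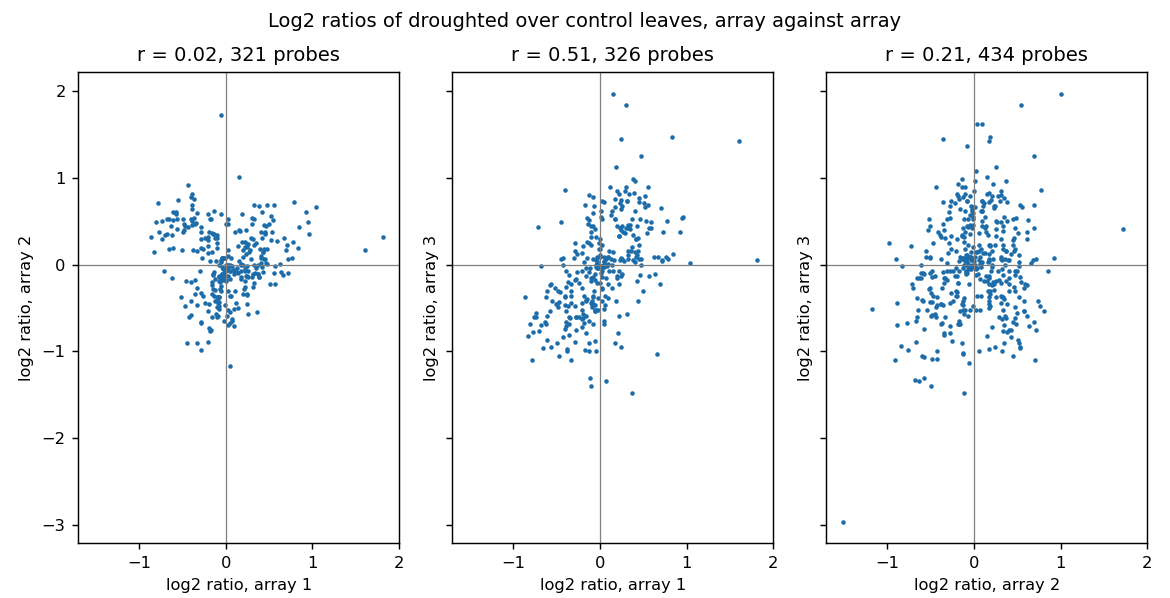
Log2 ratio of droughted over control leaves on one array (horizontal axis) against another (vertical axis), 1 point per tested probe with a value on both. Arrays 1 and 3 form a rising cloud (r = 0.51), arrays 2 and 3 a weaker one (r = 0.21), and arrays 1 and 2 none (r = 0.02).

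Array 1 correlated more with a drought flower array than with either of the other leaf arrays, over different sets of probes. With leaf array 3, of the opposite dye orientation, r was 0.51 over 326 probes. With drought flower array 1, of the same orientation, it was 0.62 over 194 probes. With drought flower arrays 2 and 3 it was 0.38 and 0.28. Drought leaf array 3 gave 0.44, 0.15 and 0.49 with the same arrays, and drought leaf array 2 gave -0.39, 0.04 and -0.30. Array 2 instead correlated at 0.51 and 0.42 with the first and second arrays of shoots after 48 h of salt, and at 0.39 and 0.51 with those after 24 h, all of its own dye orientation. With the dye-swapped salt shoot arrays it gave 0.26 at 48 h and -0.03 at 24 h. On each of the 3 leaf arrays the control spots above show which dye a channel held, but not which RNA. Channel roles of all 3 therefore rest on the deposited labels alone, as do the fitted values. Why array 2 correlated in this way was not tested. Without array 2 no probe was called either, and 35 probes were higher and 21 lower at an unadjusted p under 0.05. The fitted values without it were 0.59 for U042, 1.07 for U096 and -0.71 for U474.

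The prefixes of the probe codes divide the array into 4 classes. The array design is known to combine chickpea, grass pea and lentil material, but the files do not say which prefix is which. Of 442 U probes 292 were tested, of which 31 were higher and 31 lower at an unadjusted p under 0.05, or 21.2%. Of 117 CA probes 97 were tested, of which 4 were higher and 8 lower, or 12.4%. Of 156 LS probes 50 were tested, of which 3 were higher and 1 lower, or 8%. These shares stand beside 17.7% over all tested probes. Of the 20 probes of the main set 17 were U probes, as were 292 of all 441 tested probes.

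Of 41 LC probes only 2 had a ratio, both on arrays 2 and 3 alone. They read -0.26 and 0.18 (fitted -0.04, limma adjusted p 0.963) and -0.27 and -0.08 (fitted -0.18, adjusted p 0.742). These were 2 spots on array 2 and 1 spot on array 3. The response of the class was not detectable at this signal.

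Presence and absence were looked at without ratios. The criterion for a channel was that 50% or more of a probe's spots lay over the local background by more than 2 background SDs. By that rule 325 probes were above background in both channels of all 3 arrays, and 205 in no channel of any. No probe was above background in droughted leaves on all 3 arrays and in control leaves on none, and none the reverse. With a limit of 3 SDs U034 alone met the first condition. U245 and U040 came nearest at 2 SDs, above background in droughted leaves on arrays 2 and 3 and in control leaves on none, and were named after their values were seen. The droughted signal of U245 was 2.02 and 1.61 times background on those arrays, and its control signal 1.55 and 1.24 times. For U040 the droughted signal was 2.14 and 1.53 times and the control signal 1.43 and 1.6 times. On array 3 the control signal of U040 was thus the higher. Both probes were near the limit, and neither had an unflagged spot on any array.

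Against leaves under cold, the drought response differed for 15 of 403 probes tested in both (3.72%) in limma, 6 relatively higher under drought (1.49%) and 9 relatively lower (2.23%). The cold plants were of the same genotype and stage and spent 7 nights at 5 °C, with glasshouse plants as controls. In all 15 the fitted ratio changed sign from one experiment to the other, while the sign was the same at 182 (45.2%) of all 403. The 15 were selected by the difference itself. Some of them were called within cold leaves on their own. So were others of the 403, such as CA0857 (limma adjusted p 0.0138), U284 (0.0213) and U301 (0.0213), so this was not particular to the 15. For 10 of the 15 the difference was 2-fold or more, as it was for probes that did not pass, such as U399 (-1.55) and U284 (-1.18). For 10 the arrays of the 2 experiments did not overlap, as for 119 (29.5%) of all 403.

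U096 was the largest of the 15. Its log2 ratios under drought were 0.30, 0.54 and 1.84, and under cold -1.90, -0.45 and -1.48, with all drought arrays above all cold arrays. The difference was 2.17 with an SE of 0.41 (limma adjusted p 0.0123), and it passed in 20 of 23 alternatives.

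LS0551 read 0.10 and 1.62 under drought on arrays 2 and 3, and -2.45, -1.07 and -0.47 under cold. The difference was 2.0 with an SE of 0.46 (limma adjusted p 0.0426). LS0951 read 0.71, 0.23 and 0.65 under drought and -1.98, -0.90 and -0.19 under cold, a difference of 1.56 with an SE of 0.35 (adjusted p 0.0425). Both were above every cold array on each drought array that measured them.

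U042, the drought probe with the smallest p, read -0.31 and -0.47 on the 2 cold arrays with a ratio. The difference was 0.95 with an SE of 0.17 (limma adjusted p 0.00898). U162 and U205 were the other probes relatively higher under drought, by 0.8 and 0.83, with arrays that overlapped between the experiments.

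Among the 9 that were relatively lower, CA0897 and U488 were furthest from 0 under cold, not under drought. CA0897 read 2.09, 2.16 and 1.22 under cold and 0.24, 0.24 and -0.95 under drought, a difference of -1.98 with an SE of 0.46 (limma adjusted p 0.0419). U488 read 1.24 and 1.18 under cold and 0.06, -0.36 and -0.47 under drought, a difference of -1.55 with an SE of 0.27 (adjusted p 0.00898). Their drought values alone were near 0, at -0.23 and -0.22 with adjusted p of 0.768 and 0.486.

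U109 was moderate and even. It read -0.52, -0.37 and -0.27 under drought and 0.48, 0.28 and 0.68 under cold, a difference of -0.87 with an SE of 0.16 (limma adjusted p 0.00898). U455, CA0014 and U473 differed by -1.13, -1.01 and -1.01 with no overlap, U473 with all 3 of its drought arrays below 0 and all 3 of its cold arrays above.

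U071, CA0694 and CA0863 differed by -1.19, -1.18 and -0.92, but their arrays overlapped. U071 read -0.13, 0.35 and -0.90 under drought and 1.38, 1.17 and 0.32 under cold. On both sides the dye-swapped array was the lowest, which the dye term of the fit takes up, at 0.51 for U071 and 0.46 for CA0694. Without a dye term these probes did not pass, with adjusted p of 0.165 and 0.144.

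The number of calls against cold depended on the dye term and on particular arrays. Without a dye term 3 of the probes tested passed (U042, U096 and U488). With the drought and cold leaf arrays fitted alone 0 did. That fit also had no dye term, so its count stands beside the 3 and not the 15. Without drought array 3 the count was 2, without drought array 2 it was 9, and without cold array 3 it was 5. Across probes the fitted drought and cold ratios had r = -0.1 over 403 probes, with the same sign at 45.2%.

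**Figure D5:**
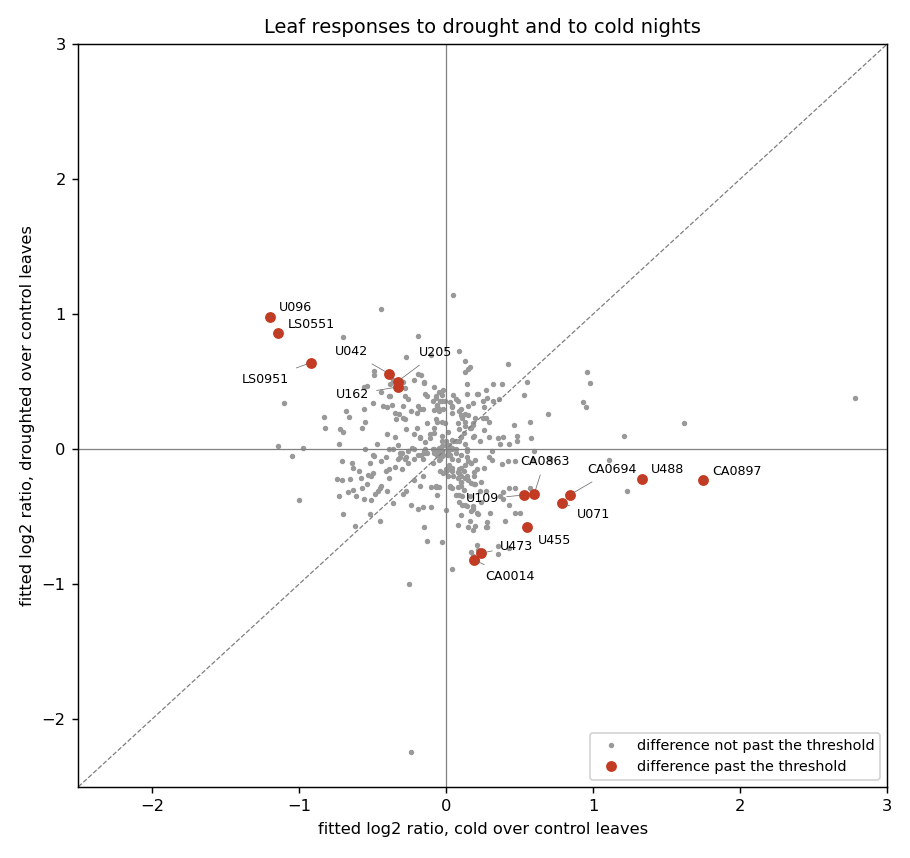
Fitted log2 ratio of droughted over control leaves (vertical axis) against that of cold over control leaves (horizontal axis) for the 403 probes tested in both, with the 15 whose difference passed in red and named. The dashed line marks equal ratios, and all 15 red points lie in the quadrants where the signs are opposite.

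Against flowers with early pods under the same drought, the leaf response differed for none of 389 probes (0%) in limma. At an unadjusted p under 0.05 stood 31 (7.97%), and for 82 (21.1%) the arrays of the 2 tissues did not overlap. The smallest adjusted p was 0.543. A p that misses the threshold does not show that the tissues responded alike.

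The smallest p was that of U104, at -0.40, -0.58 and -0.74 in leaves and 1.03, 0.08 and 0.08 in flowers. The difference was -0.97 with a 95% interval from -1.55 to -0.39 (limma adjusted p 0.543). CA0108 read 0.50, 0.47 and -0.30 in leaves and -2.09, -0.23 and -0.69 in flowers, a difference of 1.23 with an interval from 0.42 to 2.03, and U243 differed by -0.55 with an interval from -0.91 to -0.19. Both U104 and CA0108 were furthest from 0 in flowers on flower array 1.

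All 10 higher probes of the main set had a fitted value above 0 in drought flowers, with a median of 0.38 there beside 0.04 over all probes tested in flowers. Of the 10 lower probes 8 were above 0 in flowers, with a median of 0.04, the same as over all probes tested there. Over all 389 probes the 2 tissues had the same sign at 61.4% and r = 0.33. Whether leaves and flowers came from the same plants is not stated, and the fits share a dye term.

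The likeness of the 2 tissues was seen at single probes on array 1. U442 read 1.81 on leaf array 1 and 1.71 on flower array 1, against 0.05 to 0.32 on the other leaf arrays and -0.18 and -0.08 on the other flower arrays. U170 read 1.60 and 1.52 on the array 1 of each tissue, 0.17 and 1.43 on the other leaf arrays, and 0.05 and 0.01 on the other flower arrays, so leaf array 3 was nearly as high as leaf array 1. U034 had its highest flower value, 1.46, on flower array 3, as it had its highest leaf value on leaf array 3. U042 read 0.22, 0.19 and 0.06 in flowers, below each of its leaf values.

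The authors' deposited table holds 1 mean log2 value per probe for this sample, for 503 probes. For the 441 tested probes the sign was the same as that of the fitted value at 345 (78.2%), with r = 0.75 across probes. Of these, 260 were below 0 and 181 above in the authors' deposited table, and the median of the column was -0.0852. Of the 78 probes with an unadjusted p under 0.05, 77 had the same sign in it.

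The authors' deposited table put 45 probes at 2-fold or more lower and 4 at 2-fold or more higher, and 28 of these were among the tested probes. Its 5 lowest values were -2.64 for U151, -2.43 for U050 and U075, -2.2 for LS0616 and -2.17 for U242. In the arrays, 4 of these 5 had unflagged spots on a single array, where their ratios were between -0.57 and -0.13. U151 read -0.61 and -0.10 on arrays 2 and 3, fitted at -0.35. In the authors' deposited table U096 stood at 1.01 and U170 at 0.99, near the fitted 0.98 and 1.04. CA0674, its highest at 1.67, had a ratio on array 2 only, of 0.39.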

How the data were processed

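Droughted and control leaf RNA of chickpea were compared on 3 two-colour arrays of a series of 24. The deposited intensity values are mean spot and local background brightness from ImaGene 5.5, per the file headers. The authors' deposited log2 values were made in GeneSight 3 by background subtraction, omission of flagged spots, LOWESS and combination of spots, per the series design; their scale is log2, and the exact shift of their log and their centring are not given in the sources used here. Channel roles came from the channel labels in the deposits.

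Spots with flag 0 in both channels were background-corrected (normexp, offset 50), loess-normalised within the array and averaged per probe. limma 3.58.1 (R 4.3.3) was fitted to 21 arrays with a dye term, and Benjamini-Hochberg adjustment of p-values ran over all probes with at least 2 drought leaf arrays. Left out were 3 salt root arrays (24 h) that held one and the same scan, with pixel SDs equal at 99.74 to 100% of spots. The drought leaf arrays shared no such values. On simulated data 100% of probes changed by 2 log2 units were called, 75% at 1 log2 unit and 10% at 0.5. Each share was of 20 among 441 probes, and 0.787% of 381 unchanged ones were called. The simulation gave a probe the same spread on every array and all probes the same dye shift. The SD over probes was 0.39, 0.378 and 0.592 on drought leaf arrays 1, 2 and 3, so these shares need not hold for them.

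Named probes were the 10 highest and 10 lowest with the same sign on 3 arrays, the 5 smallest p-values, those called under an alternative, those above background in 1 group only, the called or 3 smallest p-values of each difference, LC probes with a value, and the 3 widest ranges. Members and lists were chosen with earlier results of these data known. No gene list was used, since no table given pairs the probe codes with genes. Alternatives covered background, normalisation, flags, spots, dye, weights, day of quantification, array number and each array left out.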

Additional observations from a re-analysis of the deposited data

Results flagged for a closer look

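For 15 probes the drought response of leaves differed from the cold response of leaves by limma's test of the difference itself. Those relatively higher under drought were U096 (log2 difference 2.17), LS0551 (2.0), LS0951 (1.56), U042 (0.95), U205 (0.83) and U162 (0.8). Those relatively lower were CA0897 (-1.98), U488 (-1.55), U071 (-1.19), CA0694 (-1.18), U455 (-1.13), CA0014 (-1.01), U473 (-1.01), CA0863 (-0.92) and U109 (-0.87). Over the alternatives with a value, U488 passed in 19 of 20, U096 and U109 in 20 of 23 and U071 in 19 of 23, while U473 passed in 7 of 23.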

How the results depend on the processing

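The count of 0 drought calls stayed at 0 under each alternative tried except at least 3 unflagged spots, which gave 1, and array quality weights, which gave 4. At an unadjusted p under 0.05 the higher count became 60 with array quality weights. Leaving out 1 drought array gave 9 to 35 higher probes and 4 to 40 lower probes, the lowest of each without array 3. Of 37 named probes 30 kept the sign of their fitted drought value throughout, 20 of the 37 having been chosen for an even sign over arrays. Leaving out each array in turn gave -0.36 to 0.09 for CA0897, -0.42 to 0.04 for U488 and -0.03 to 0.85 for U298, each turning sign without array 3. U455 became 0.16 with flagged spots kept, CA0108 -0.10 with the median of spots, 1 LC probe 0.18 with the replicate block, and CA0694 was 0.17 in the authors' deposited table. The cause of these turns was not tested. The 15 calls against cold leaves became 51 with scaling between arrays, 29 with at least 3 unflagged spots and 5 with flagged spots kept. They became 5 with only spots flagged in both channels left out, and 3 without a dye term. When only the drought and cold leaf arrays were fitted, also without a dye term, they became 0. Leaving out 1 drought or cold array gave 2 to 19. With a term that set the day of quantification of drought leaf array 1 against all other days, 17 differences passed. The array number as a replicate block, fitted in place of the dye term, gave 11 against cold and 0 in drought leaves alone. Array 3 had its dyes swapped in every condition, so this block also carried the dye. Beyond that the number is only a name. Scaling gave 1 call against flowers, CA0108 at 1.42 (adjusted p 0.0299). With a limit of 3 background SDs 1 probe was above background in droughted leaves only. For the 114 probes without a ratio on array 1 the values rest on arrays 2 and 3 alone.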
